A study of Mus musculus with 22 samples.

Results

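Contractile and SRF-controlled cytoskeleton genes were followed through Denr knockdown in NIH3T3 cells: Acta2, Tagln, Cnn1, Myl9, Tpm1, Tpm2, Cald1, Vcl, Flna and Srf. They were chosen by name, as genes of the actin-myosin apparatus and its transcription factor, and were matched to their Ensembl identifiers. Of these 10 genes, 9 were among the 10516 genes with values, and Cnn1, the calponin of smooth muscle, was not analysed here. NIH3T3 is a fibroblast line from mouse embryos. Knockdown lysates came from 3 cultures with Denr shRNA1 and 3 with Denr shRNA2, and control lysates from 3 cultures with scramble shRNA and 2 with Gfp shRNA. All cultures, controls included, received a lentivirus with an shRNA, puromycin selection, and cycloheximide at 100 µg/ml for 2 min before lysis. Each of the 11 lysates gave an RNA-seq library and an RPF-seq library, made of the stretches of mRNA that ribosomes cover (footprints). Values are RPKM, reads per kilobase of region scaled to the normalized library size, for the coding sequence (CDS) and the 5′ UTR.

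SRF is a transcription factor that binds the CArG box, a short element with an A/T-rich core, in the promoters of actins and of proteins that bind actin. Its cofactors of the MRTF family sit on free actin monomers and enter the nucleus when actin polymerizes, so that the state of the cytoskeleton feeds back on its own genes. The same genes are high in smooth muscle and in fibroblasts that turn contractile. DENR is a factor that lets ribosomes start again after a short upstream open reading frame (uORF).

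The CArG boxes found in the promoters are shown here because they are the element that defines SRF control. RefSeq promoter windows of 300 bases, 250 before and 50 after the start site (GRCm38.p6), were at hand for 9 of the 10 genes, with Tagln missing and 2 windows for Cald1. An exact CArG box, which reads as a CArG box on both strands, lay in the windows of Myl9, Vcl and Srf, against 1.63% of all 32851 windows. The windows of Acta2, Cnn1, Tpm1, Tpm2, Cald1 and Flna held none. Only exact boxes were searched. Boxes that depart from the pattern by a base, or that lie outside these windows, were not looked for. The box is in capitals, with 10 bases of flank on each side, in the direction of the gene.
Myl9 (chr2:156775293-156775322, plus strand): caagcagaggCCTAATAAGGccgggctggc
Vcl (chr14:20929161-20929190, plus strand): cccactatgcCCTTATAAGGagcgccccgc
Srf, distal (chr17:46556225-46556254, minus strand): ctggggctcgCCATATAAGGagcggcctcg
Srf, proximal (chr17:46556205-46556234, minus strand): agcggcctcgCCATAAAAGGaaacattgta
The boxes began 161 bases before the start site in Myl9, 227 in Vcl, and 82 and 62 in Srf. Of these 3 genes, Myl9 and Vcl passed the test for footprints between knockdown and control, in opposite directions, and Srf did not. The result of Myl9 depended on single lysates. Flna and Tpm2, without a box in their windows, passed as well. Whether boxes and changes go together was not tested. The other genes of the pathway held a box in 9 of 61 windows.

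The libraries held 8514080 to 20109700 RNA-seq reads and 10927303 to 21649878 RPF-seq reads on CDS and 5′ UTR. Denr, the target of the knockdown, had 15.5 to 44.0 RPKM of RNA in knockdown lysates and 165 to 190.1 RPKM in controls, a log2 fold change of −2.75 (adjusted p = 0.00035, limma). All 8 fibroblast markers had values, and their summed RNA was 5658 to 6597 RPKM after knockdown and 5470 to 6059 RPKM in controls. Vim made up most of this sum, at 3844 to 4432 RPKM after knockdown and 3834 to 4253 RPKM in controls. Of 6 markers of differentiated smooth muscle 3 had values (Smtn, Synm and Des), and Myh11, Lmod1 and Myocd were not among the genes with values. The summed RNA of the 3 was 27.1 to 34.3 RPKM after knockdown and 28.2 to 32.6 RPKM in controls. Most of it was Smtn, at 24.0 to 30.2 and 25.9 to 29.9 RPKM. The only skeletal muscle marker with a value was Des, a muscle intermediate filament, at 0.823 to 1.55 RPKM. None of 4 blood and 3 adipocyte markers had a value, 1 of 3 endothelial markers did (Cdh5, up to 1.10 RPKM), and 1 of 4 epithelial markers (Cdh1, up to 4.05 RPKM). The RNA-seq library of Denr shRNA1 replicate 1 stood apart for some genes, and the RNA changes of Acta2, Cald1 and Myl9 are given with and without it.

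Differences between the arms were tested with limma on log2(RPKM + 0.1), 6 knockdown against 5 control lysates, over all 10516 genes. A gene is called where the Benjamini-Hochberg adjusted p was below 0.1, and fold changes are on this log2 scale unless given as a ratio. TE, the translation efficiency, is the log2 difference between the CDS footprints and the CDS RNA of a lysate. The lysates are of whole cultures, in which fewer cells with a transcript and less RNA per cell cannot be told apart.

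The level of the genes per kilobase spanned more than an order of magnitude. Acta2, the smooth muscle α-actin, was far above the rest, with 1536 ± 400.5 RPKM of RNA (SD, n = 5) in controls, and only 46 of the 10516 genes were higher there. Tagln (transgelin, which binds actin filaments) had 276 ± 61.2 RPKM and Tpm2 (β-tropomyosin) 225 ± 21.01 RPKM, and the ranges of these 2 genes overlapped. Tpm1 (α-tropomyosin, which like Tpm2 winds along the actin filament) followed with 134 ± 4.74 RPKM and Flna (filamin A, which crosslinks actin into networks) with 109 ± 8.55 RPKM, without overlap between these neighbours. Vcl (vinculin, which ties actin to adhesion sites), Myl9 (a regulatory light chain of myosin II), Cald1 (caldesmon, which restrains myosin on actin) and Srf lay between 32.98 and 46.5 RPKM, and each overlapped with its neighbour in this order. These genes have several isoforms in part, and the CDS length behind the RPKM was 1229 bases for Tpm1, 1008 for Tpm2 and 2369 for Cald1, longer than the CDS of any 1 transcript in GENCODE vM21.

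The order of the footprints differed from that of the RNA. In controls, Acta2 had 1870.5 ± 428 RPKM of CDS footprints (SD, n = 5), while Srf had 12.4 ± 1.37 RPKM, below Vcl at 50.9 ± 4.16 RPKM without overlap. Cald1, Flna and Myl9 lay close together at 74.8, 73.5 and 72.9 RPKM and overlapped. The TE of Cald1 in controls corresponded to a ratio of 2.22 footprint RPKM per RNA RPKM, and 5.14% of all genes had a higher one. For Myl9 the ratio was 1.93, for Tagln 1.67 and for Tpm2 1.66. Flna lay below the median of all genes (0.949) with 0.673, and Srf had 0.376, a ratio that 89.5% of all genes exceeded.

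**Figure D1:**
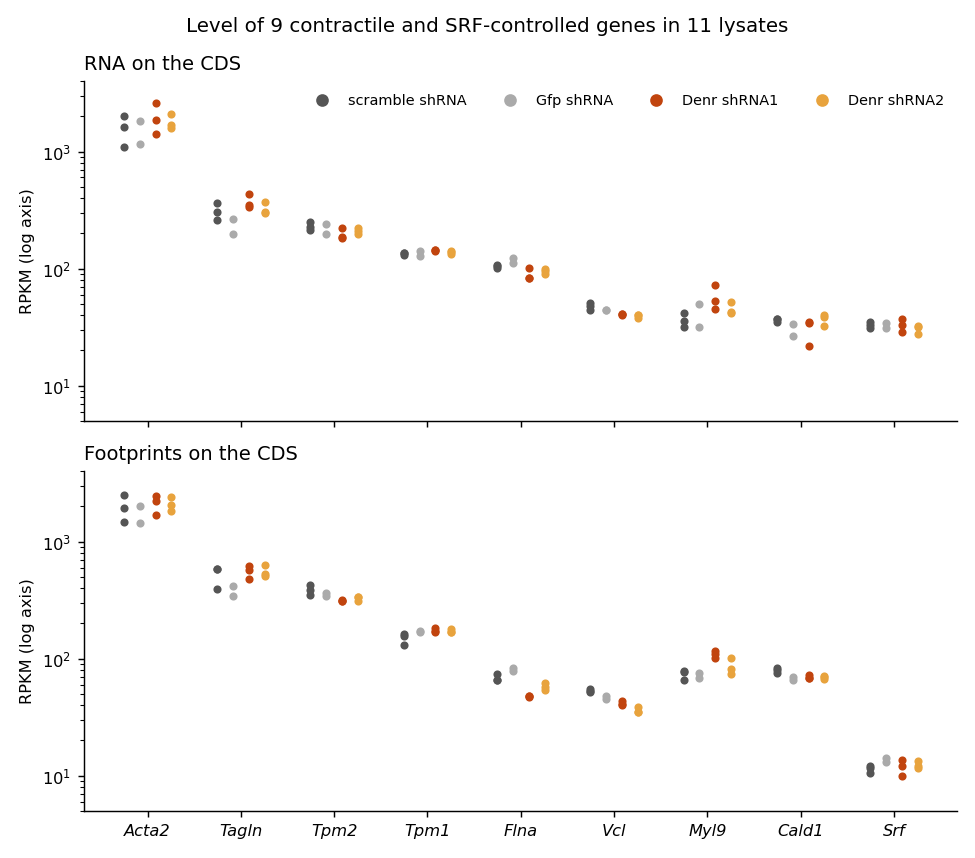
RPKM on the CDS (log axis) of the 9 genes in RNA-seq (top) and RPF-seq (bottom), 1 point per lysate, coloured by shRNA. Acta2 is highest in both panels, Srf is lowest in footprints, and the Flna and Vcl footprints of the 6 knockdown lysates lie below those of the 5 control lysates.

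Of the 9 genes, 3 had fewer CDS footprints after knockdown and 1 had more, while the other 5 were not called. The genes with fewer footprints were Flna, Vcl and Tpm2, and the gene with more was Myl9. Over all genes, 4.55% were called lower and 5.47% higher. The median change over the 9 genes was −0.038, against 0.0072 over all genes, and turned to 0.016 without Denr shRNA1 replicate 3 and 0.014 without Gfp replicate 2. In 3 of the 9, all 6 knockdown lysates lay under the lowest control lysate, which held for 1.97% of all genes.

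Flna (chromosome X, 74223461 to 74249820) had the largest footprint decrease of the 9 over both Denr shRNAs together. Its CDS footprints were 47.2, 51.0 and 62.5 RPKM in knockdown lysates (lowest, median and highest of 6). The scramble lysates had 65.8, 65.7 and 74.6 RPKM and the Gfp lysates 78.8 and 82.4 RPKM. The arms did not overlap, and knockdown footprints were at 0.718 of the control level (log2 −0.48, standard error 0.088, adjusted p = 0.0124). Flna RNA was 83.5, 92.5 and 100.6 RPKM after knockdown, and 106, 101 and 104 RPKM with scramble and 123 and 111 RPKM with Gfp shRNA. The highest knockdown and the lowest control value lay next to each other without overlap, and the difference of −0.24 (standard error 0.075) had an adjusted p of 0.124.

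Vcl (chromosome 14, 20929398 to 21033676) was the second gene whose footprints separated the arms. The knockdown lysates had 34.7, 39.1 and 43.1 RPKM of CDS footprints (lowest, median, highest), against 53.2, 55.6 and 52.2 RPKM with scramble and 45.1 and 48.3 RPKM with Gfp shRNA. This corresponded to 0.760 of the control level (log2 −0.40, standard error 0.073, adjusted p = 0.0125). Vcl RNA was 37.5, 40.2 and 41.3 RPKM after knockdown, below all controls with 50.6, 48.2 and 44.3 RPKM (scramble) and 44.7 and 44.6 RPKM (Gfp). The RNA difference of −0.21 (standard error 0.062) fell just short of the threshold, with an adjusted p of 0.101.

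Of the tropomyosins, Tpm2 was called and Tpm1 was not. Tpm2 (chromosome 4, 43514711 to 43523765) had 310, 313 and 337 RPKM of CDS footprints after knockdown, all below the controls, which had 389.5, 428 and 349 RPKM (scramble) and 346 and 361 RPKM (Gfp). The change was −0.22 (standard error 0.062, adjusted p = 0.0539), or 0.856 of the control level. Its RNA overlapped between the arms, with 182 to 224 RPKM after knockdown and 198 to 251 RPKM in controls. Tpm1 (chromosome 9, 67022590 to 67049406) had 168 to 182 RPKM of footprints after knockdown and 131 to 171 RPKM in controls. That difference of 0.13 (95% interval −0.015 to 0.27) was not called, except with scramble shRNA alone as control (0.20, adjusted p = 0.0716), nor was that of its RNA (0.068, interval −0.051 to 0.19). Whether Tpm1 and Tpm2 differed from each other was not tested.

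Myl9 (chromosome 2, 156775420 to 156781658) was the only 1 of the 9 called higher in footprints. The knockdown lysates had 73.3, 100.9 and 115 RPKM (lowest, median, highest) and the controls 78.4, 77.1 and 66.1 RPKM (scramble) and 75.1 and 67.9 RPKM (Gfp). All 3 lysates of Denr shRNA1 lay above every control, while 1 of 3 lysates of Denr shRNA2 lay among them. Over both shRNAs the change was 0.39 (standard error 0.107, adjusted p = 0.0511), or 1.31 times the control level. Myl9 RNA moved by a similar amount (0.41, standard error 0.15) with an adjusted p of 0.185, from 31.7 to 49.99 RPKM in controls to 41.6 to 71.9 RPKM after knockdown, and the highest of these values was that of Denr shRNA1 replicate 1. Without that lysate the RNA change was 0.31 (adjusted p = 0.205) and the footprint change 0.34 (adjusted p = 0.0873).

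**Figure D2:**
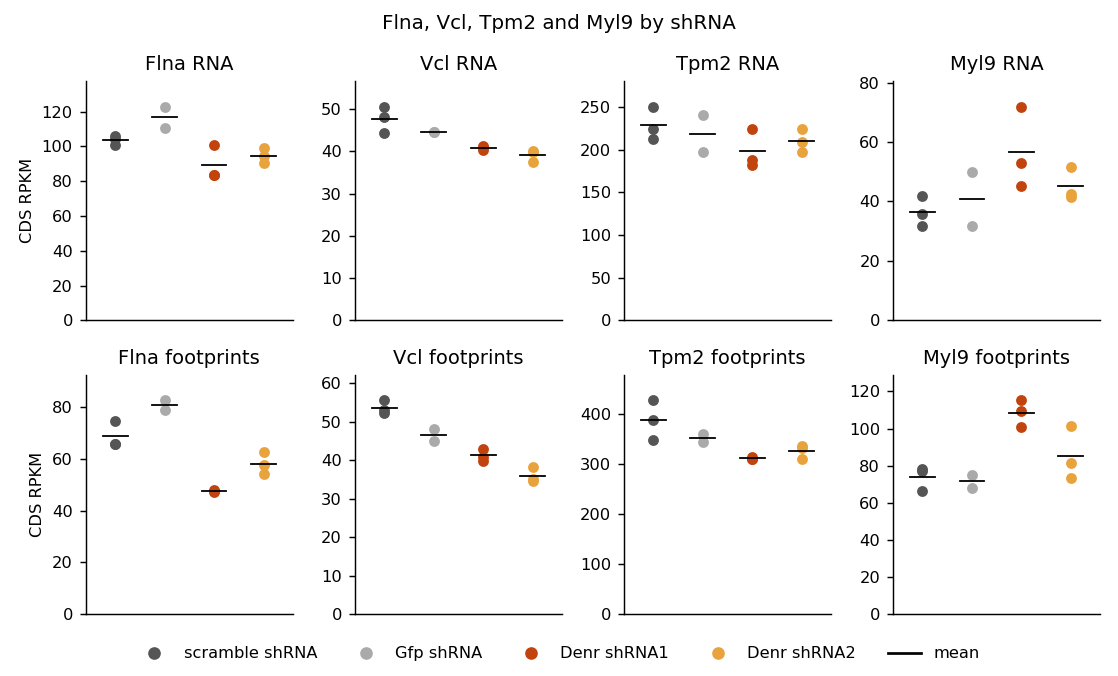
CDS RPKM of the 4 called genes by shRNA, RNA-seq above and RPF-seq below (linear axes from 0), with 1 point per lysate and the mean as a line. Footprints of Flna, Vcl and Tpm2 are lower with both Denr shRNAs than in every control lysate, and footprints of Myl9 are highest with Denr shRNA1, at 101 to 115 RPKM.

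The calls for Tpm2 and Myl9 depended on single lysates. Without Denr shRNA1 replicate 2 neither was called (adjusted p = 0.106 for Tpm2 and 0.103 for Myl9). Tpm2 was also lost without scramble replicate 1 (0.135) or 2 (0.126), and Myl9 without scramble replicate 3 (0.111). Flna and Vcl stayed called whichever lysate was left out.

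Acta2, Tagln, Cald1 and Srf were not called in footprints or RNA. Acta2 (chromosome 19, 34241090 to 34255590) had 1688, 2146 and 2437 RPKM of CDS footprints after knockdown (lowest, median, highest), and 2487, 1930.4 and 1480 RPKM (scramble) and 2007 and 1448 RPKM (Gfp) in controls. The arms overlapped over most of their range (log2 0.19, interval −0.11 to 0.49). Acta2 RNA ranged from 1407 to 2613 RPKM after knockdown and from 1085 to 2006 RPKM in controls (0.30, interval −0.090 to 0.69). Without Denr shRNA1 replicate 1 the RNA difference was 0.20. Tagln (chromosome 9, 45929619 to 45936058) had 301, 342 and 437 RPKM of RNA after knockdown and 363, 301.2, 258, 264 and 196 RPKM in controls (0.35, interval 0.056 to 0.65, adjusted p = 0.219). Its footprints differed by 0.29 (interval 0.00039 to 0.58, adjusted p = 0.212). With 4 shRNA groups in the fit the footprint difference of Tagln was 0.33 and was called (limma, adjusted p = 0.0843). Cald1 (chromosome 6, 34598500 to 34775473) had 66.6 to 72.8 RPKM of footprints after knockdown, within the control range of 65.4 to 83.8 RPKM. Against the scramble lysates alone this difference was −0.20 and was called (adjusted p = 0.0354). Cald1 RNA differed by −0.023 (interval −0.33 to 0.29). Cald1 RNA was lowest in Denr shRNA1 replicate 1, with 21.6 RPKM against at least 26.5 RPKM in the 10 others, and without that lysate the difference was 0.099.

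Srf (chromosome 17, 46548329 to 46556175), the transcription factor itself, was near its control level. Its RNA was 27.8, 32.0 and 37.2 RPKM after knockdown (lowest, median, highest) and 33.1, 35.2, 30.8, 34.6 and 31.3 RPKM in controls (−0.055, interval −0.23 to 0.12). Its CDS footprints were 9.93 to 13.6 RPKM after knockdown and 10.6 to 14.2 RPKM in controls (−0.038, interval −0.24 to 0.16). The arms overlapped in both.

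In RNA, none of the 9 genes was called by limma. An unadjusted p under 0.05 was found for 4 of them (Vcl, Flna, Myl9 and Tagln) and for 1697 of all 10516 genes. Voom on the recovered reads called 1, Vcl. With the replicate number as a block limma called 5 (Acta2, Flna, Myl9, Tagln and Vcl), with adjusted p of 0.0272 to 0.0845. Lysates of the same number deviated together on average, with a mean r of 0.33 in RNA against −0.16 for other pairs. What the numbers stand for is not stated, so the block is given as an alternative. Without Denr shRNA1 replicate 1 limma called Flna and Vcl, and without Gfp replicate 1 Myl9 and Vcl. In the fit of all lysates without a block, 3.55% of all genes were called. The share of all genes called with the block is not given here. In Flna and Vcl all 6 knockdown lysates lay under the lowest control lysate, as in 1.04% of all genes. The median RNA change over the 9 was −0.023, against 0.027 over all genes, and its sign turned without Denr shRNA1 replicate 1 (0.059), scramble replicate 2 (0.011) or scramble replicate 3 (0.012). In TE limma again called none of the 9, and neither voom nor an interaction term called any. An unadjusted p under 0.05 was found for 2 of the 9 and for 700 of all 10516 genes. Over all genes 0.475% were called. The lowest TE changes were those of Flna (−0.23, interval −0.42 to −0.044) and Vcl (−0.18, interval −0.33 to −0.030), with adjusted p of 0.617 and 0.625. The median TE change was −0.080 over the 9 and −0.012 over all genes. Without Denr shRNA1 replicate 1 it was −0.052 over the 9.

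**Figure D3:**
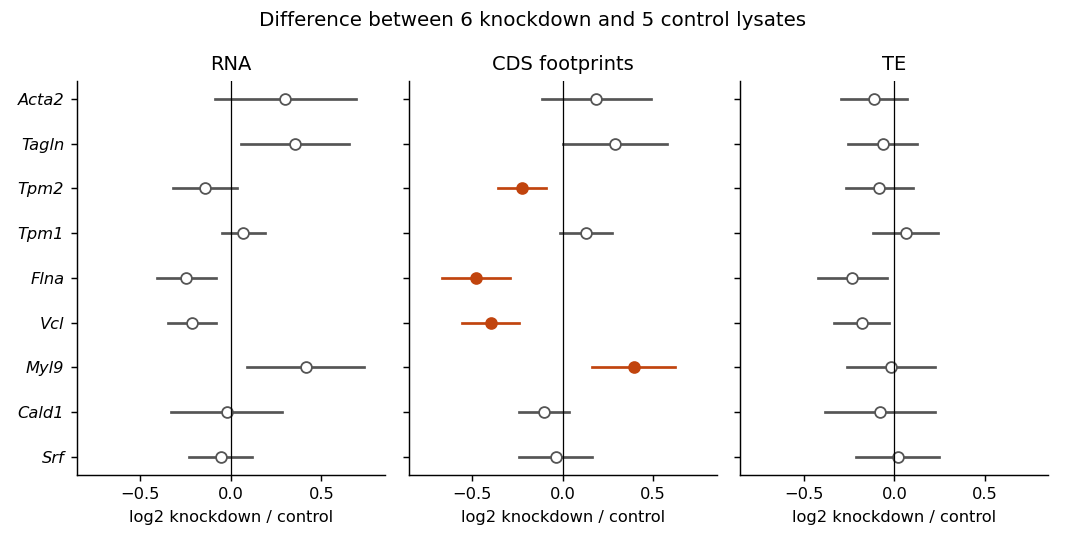
Log2 fold change of the 9 genes, knockdown over control, with its 95% interval (limma, n = 6 and 5), for RNA, CDS footprints and TE. Filled points are called, which are Flna, Vcl, Tpm2 and Myl9 in CDS footprints and none in RNA or TE.

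Footprint changes moved with the length of the CDS across all genes, and Flna and Vcl have a long CDS of 7941 and 3198 bases. The median footprint change was 0.052 for genes with a CDS of up to 1000 bases, 0.0075 over 1000 and up to 2000, −0.025 over 2000 and up to 3000, and −0.045 over 3000, where 8.48% of genes were called lower and 1.66% higher. With each library corrected for CDS length and GC content, Flna changed by −0.42 (adjusted p = 0.0108), Vcl by −0.38 (0.0167) and Tpm2 by −0.28 (0.0224). Myl9, with a CDS of 516 bases, was no longer called (0.31, adjusted p = 0.107). In TE the same correction brought Flna to −0.094 and Vcl to −0.11.

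**Figure D4:**
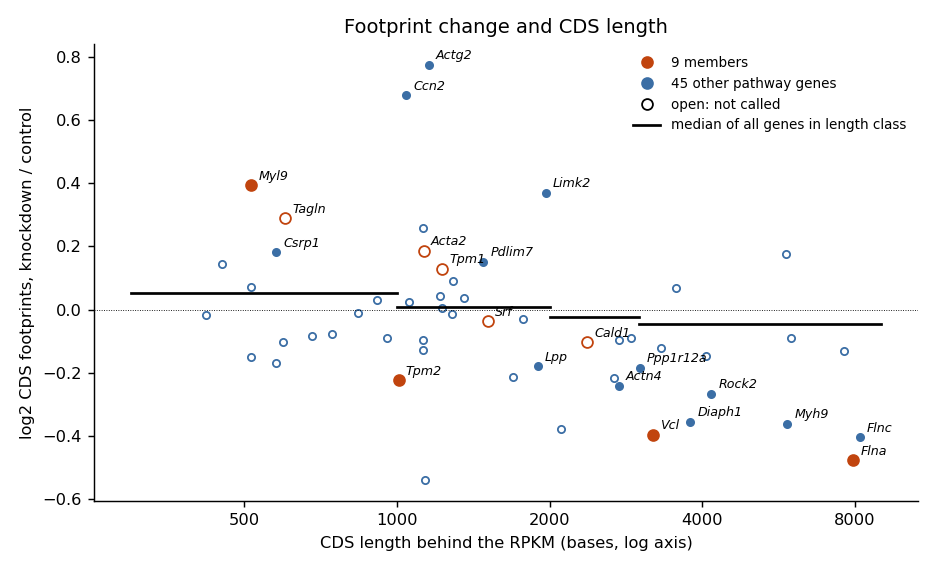
Log2 change of CDS footprints against the CDS length behind the RPKM (log axis) for the 9 genes (red) and 45 other genes of the pathway (blue), filled where called. Black lines are the medians of all genes in 4 length classes, from 0.052 to −0.045, and Flna and Flnc lie far below them on the right.

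Each Denr shRNA was also set against the 5 controls, which both comparisons share. Flna footprints changed by −0.62 with shRNA1 (adjusted p = 0.00313) and by −0.34 with shRNA2 (0.0722). For Vcl the changes were −0.30 (0.0659) and −0.49 (0.0111). Myl9 rose by 0.57 with shRNA1 (0.00313), and the value with shRNA2 was 0.22 (0.264). Tpm2 had −0.26 (0.108) and −0.19 (0.212), neither called. Between the 2 Denr shRNAs, footprints were called different for 2 of the 9 genes, where 9.69% of all genes were. Flna was higher with shRNA2 than with shRNA1 (0.28, adjusted p = 0.0402, with 53.9 to 62.5 against 47.2 to 48.1 RPKM) and Myl9 lower (−0.36, adjusted p = 0.0844, with 73.3 to 101 against 101 to 115 RPKM). Neither gene was called without Denr shRNA1 replicate 2 or 3 or Denr shRNA2 replicate 3. Myl9 alone was lost without Denr shRNA1 replicate 1 or Denr shRNA2 replicate 2, and Flna alone without Denr shRNA2 replicate 1. Denr footprints differed between these shRNAs as well, by −1.50.

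The controls also differed from each other in footprints. Between Gfp and scramble shRNA 1 of the 9 genes was called, Cald1, with 69.2 and 65.4 against 75.2 to 83.8 RPKM (−0.24, adjusted p = 0.0780), where 8.48% of all genes were called. Cald1 was not called without Gfp replicate 1, Gfp replicate 2 or scramble replicate 2, and without scramble replicate 3 the calls were 3, Cald1, Flna and Tagln. Tagln footprints had a difference of −0.44 (adjusted p = 0.169), larger in size than its knockdown change of 0.29. Flna differed by 0.23 (adjusted p = 0.122) and Vcl by −0.20 (0.139), against knockdown changes of −0.48 and −0.40. By limma, 4 of the 9 and 2363 of all 10516 genes had an unadjusted p under 0.05 in this footprint comparison. In RNA, limma called none of the 9 between the Denr shRNAs (0 at an unadjusted p under 0.05) and none between the controls (1, Tagln). Over all genes it called 2.06% and 0.704%, and 1435 and 1019 had an unadjusted p under 0.05. In TE it called none of the 9 in either comparison, with 0 at an unadjusted p under 0.05 in both, and 0% of all genes, of which 392 between the Denr shRNAs and 233 between the controls had an unadjusted p under 0.05.

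Translation of the 5′ UTR was measured as the log2 difference between 5′ UTR and CDS footprints of a library. A gene needed 20 or more 5′ UTR footprints in 9 or more of its 11 RPF-seq libraries, which 5175 genes met, 7 of the 9 among them. Myl9 had 7 to 28 footprints on its 5′ UTR and Vcl 3 to 18, and both fell out. Over the 5175 genes the median rose by 0.33 with knockdown, and 18.1% were called higher. Of the 7 genes, 2 were called higher, Acta2 and Cald1, and the median of the 7 was 0.39. With libraries centred on the median of all genes none of the 7 was called by limma, with 1 at an unadjusted p under 0.05, against 3 before centring. Before centring, 1725 of the 5175 genes had an unadjusted p under 0.05. The calls of Acta2 and Cald1 were both lost without any 1 of Denr shRNA1 replicates 1, 2 and 3, Denr shRNA2 replicate 2, Gfp replicate 1 or scramble replicate 1, with adjusted p of 0.103 to 0.228. Cald1 alone was lost without Denr shRNA2 replicate 3 (0.103) or scramble replicate 2 (0.107).

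Srf stood out among the 7 by its level. Its 5′ UTR had 22.9 to 42.4 RPKM of footprints in controls, above the 10.6 to 14.2 RPKM on its CDS, while its RNA was lower on the 5′ UTR than on the CDS, with 17.7 to 20.1 against 30.8 to 35.2 RPKM. The mean control ratio of 2.37 compares with a median of 0.538 over the 5175 genes, of which 7.57% were higher than Srf. In GENCODE vM21 the Srf transcript with the longest CDS has 1 AUG in its 5′ UTR that opens a uORF ending before the CDS, 61 bases upstream of the CDS start. The ratio of Srf differed by −0.058 with knockdown (interval −0.38 to 0.26), and the arms overlapped.

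Acta2 had the next highest ratio, 0.447 in controls. Its 5′ UTR footprints were 899, 1370 and 1535 RPKM after knockdown (lowest, median, highest) and 966, 937, 782, 669 and 775 RPKM in controls, so that 1 of 6 knockdown lysates fell among the controls. Without division by the CDS they differed by 0.66 (adjusted p = 0.0317), and with it by 0.48 (interval 0.095 to 0.86, adjusted p = 0.0990). Centred on the median of all genes the change was 0.15 (adjusted p = 0.766). The 5′ UTR behind the Acta2 value is 70 bases long, while the transcript in vM21 has 324, and the 3 uORF AUGs of that transcript lie 185 to 306 bases upstream of the CDS, outside the last 70 bases. Cald1 had 35.7 to 49.5 RPKM of 5′ UTR footprints after knockdown and 25.999 to 42.7 RPKM in controls, where scramble replicate 3 was the highest. Its ratio differed by 0.44 (adjusted p = 0.0860), and by 0.11 when centred (0.846). No uORF with an AUG was found in the transcript of Cald1 with the longest CDS. Its 5′ UTR is 232 bases long, while 499 bases lie behind the Cald1 value, and the rest was not searched.

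The other 5 genes with 5′ UTR coverage were not called. The ratio of Flna differed by 0.39 (adjusted p = 0.126), but its 5′ UTR footprints alone by −0.090, with 14.0 to 19.4 RPKM after knockdown and 11.6 to 21.5 RPKM in controls. The Flna transcript with the longest CDS has 1 uORF AUG, 86 bases upstream of the CDS start, and that uORF ends before the CDS. The 5′ UTR of this transcript is 119 bases long, while 211 bases lie behind the Flna value. Tagln and Tpm2 had the lowest ratios, 0.0374 and 0.0381 in controls, which 98.0% of the 5175 genes exceeded for both, although the Tagln transcript has 2 uORF AUGs. Their ratios differed by 0.27 and 0.55, with 95% intervals that include 0, and that of Tpm1 by 0.28.

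**Figure D5:**
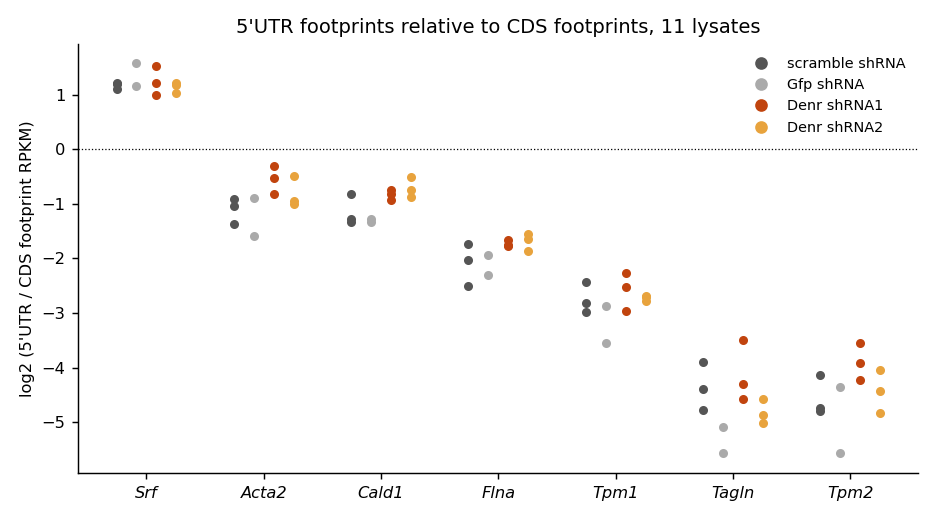
Log2 ratio of 5′ UTR to CDS footprints of the 7 genes with coverage, 1 point per lysate, coloured by shRNA. Srf lies above 0 in all 11 lysates, Tagln and Tpm2 lie below −3, and the points of Acta2 and Cald1 are shifted up with Denr shRNAs but overlap with controls.

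Of a list of 51 other genes of actin, myosin, SRF and the regulators upstream of them, 45 had values. In CDS footprints 7 were called lower and 5 higher, where 4.55% and 5.47% of all genes were, and the median of the 45 was −0.089 against 0.0072 over all genes. Flnc, a filamin of muscle and a relative of Flna, was among the lower ones and went from 12.1 to 14.8 RPKM in controls to 8.81 to 11.1 RPKM after knockdown, without overlap (−0.40, adjusted p = 0.0130). Myh9, the heavy chain of non-muscle myosin II, had 186 to 238 RPKM after knockdown and 249 to 286 RPKM in controls (−0.36, adjusted p = 0.0124). Diaph1, a formin that elongates actin filaments, had 13.8 to 16.7 against 16.4 to 21.01 RPKM with a slight overlap (−0.36, adjusted p = 0.0237). Flnc, Myh9 and Diaph1 have a CDS of 8178, 5880 and 3792 bases. Of all genes with a CDS over 3000 bases, 8.48% were called lower and 1.66% higher, with a median of −0.045. Whether the list differed from genes of like length was not tested. By role, the lower calls were 3 of 9 crosslinkers and adhesion proteins, 2 of 7 genes of myosin II and its phosphatase, and 2 of 8 upstream regulators of actin. The higher calls were 3 of 7 other SRF or MRTF targets, 1 of 3 actins and 1 of 8 upstream regulators. Among the 6 thin filament genes and the 5 SRF cofactors, limma and voom called none in footprints, and 0 had an unadjusted p under 0.05. Of all 10516 genes, 2477 had one.

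The higher calls were led by Actg2, the smooth muscle γ-actin, with 15.8 to 20.5 RPKM of footprints after knockdown and 6.77 to 13.1 RPKM in controls (0.78, adjusted p = 0.0108). Ccn2, a secreted matrix protein and SRF and MRTF target, had 35.6 to 54.9 against 21.5 to 31.4 RPKM (0.68, adjusted p = 0.0140), and Limk2, a kinase of the actin-severing cofilins, changed by 0.37 (adjusted p = 0.0258). In RNA 1 of the 45 was called, Actg2, which was higher (0.92, adjusted p = 0.0208), where 0.865% of all genes were called lower and 2.68% higher. The RNA calls were 2 without Denr shRNA1 replicate 1 or 2, Gfp replicate 1 or scramble replicate 3. In TE 1 was called, Myh9 (−0.44, adjusted p = 0.0615), whose RNA differed by 0.074. It was lost without any 1 of Denr shRNA1 replicate 3, Denr shRNA2 replicates 2 and 3, Gfp replicate 2 and scramble replicates 1, 2 and 3, with either Denr shRNA alone, scramble shRNA alone, 4 shRNA groups, voom or an interaction term. The footprint calls of these named genes held whichever lysate was left out, but Diaph1 was lost with Denr shRNA1 alone (adjusted p = 0.127) and Limk2 with Denr shRNA2 alone (0.154). Of all 45, the lower footprint calls fell to 4 without Denr shRNA2 replicate 2, scramble replicate 1 or scramble replicate 2, and the higher ones to 3 without any 1 of Denr shRNA1 replicates 2 and 3, Denr shRNA2 replicates 2 and 3 and scramble replicates 1, 2 and 3.

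Close relatives can share reads. Of all stretches of 25 bases in the Acta2 CDS, 4.50% also occur in the CDS of Actg1, Actb or Actg2, and of those in Myl9 3.03% occur in Myl12a or Myl12b. Actg2 RNA was 4.12 to 9.92 RPKM in controls, against 1085 to 2006 RPKM for Acta2. Whether Acta2 reads add to the Actg2 values was not tested. Tpm1 and Tpm2 shared 1.15% and 1.32%, Flna 0.0253% with Flnc, and Tagln, Cald1, Vcl and Srf none with any of the other genes. Actg1, the relative with the most shared stretches, was at 1769 to 2336 RPKM of footprints after knockdown and 1946 to 2333 RPKM in controls (−0.13, adjusted p = 0.361), and Myl12a differed by 0.072 (0.547).

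Within the shRNA groups some of the 9 genes had their highest RNA in the same lysates. Acta2, Tagln, Myl9, Tpm2, Vcl and Flna had their highest RNA in replicate 1 of all 4 shRNAs, and Cald1 in none. The share of all genes with this pattern was not counted. The CDS RPKM of RNA summed over all genes was also highest in replicate 1 of all 4 shRNAs. Acta2 was on average 0.35 higher in these replicates than the mean of its shRNA group. When each gene was centred on its shRNA groups, Acta2 had a Pearson r of 0.988 over the 11 lysates with the mean of the 9 genes, itself included, Tagln 0.982, Myl9 0.972 and Tpm2 0.954. Srf had 0.765, Flna 0.758, Vcl 0.635 and Tpm1 0.514, and Cald1 had −0.79. The genes outside the pathway that were most alike were Rps14 (r = 0.992), Amacr (0.991), Rangrf (0.989), Pdia6 (0.988) and Ppp1r11 (0.988), out of 9212 genes with a mean RNA of at least 5 RPKM. Of these 9212 genes 13.9% had an r beyond 0.9 in either direction, and the 11 points share their libraries and their replicate numbers.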

How the data were processed

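RNA-seq and RPF-seq of 11 NIH3T3 lysates were used, 22 libraries in all. Per the study's methods, reads were trimmed with cutadapt and mapped with Bowtie2 2.2.1 and TopHat2 2.0.11. Footprints were counted by their A site on Ensembl transcripts (GRCm38.p2), each shRNA replicate is a separate culture dish, and genes with few reads and mitochondrial genes were left out. The authors deposited RPKM values for the CDS and 5′ UTR, after upper-quartile normalization of each assay with edgeR, so that a global change in RNA or footprint amount is not visible. The libraries behind them hold 8514080 to 20109700 RNA-seq and 10927303 to 21649878 RPF-seq reads, read back from the steps of the low RPKM values. Of the CDS values, 100% came out within 0.01 of a whole read. There are no per-sample columns without a sample.

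Values were tested as log2(RPKM + 0.1) with limma 3.58.1 in R 4.3.3 (lmFit, eBayes with trend, two-sided), 6 knockdown against 5 control lysates, with Benjamini-Hochberg adjustment over all 10516 genes at 0.1. Between the Denr shRNAs and between the controls, 4 shRNA groups shared 1 estimate of the spread. The 5′ UTR ratio was tested over 5175 genes with at least 20 reads in at least 9 RPF-seq libraries. Alternatives were the pseudocount, filters, median centring, a replicate block, single shRNAs or controls, each lysate left out, voom on the recovered reads and, added after seeing the data, a correction of each library for CDS length and GC content. The code was tested on simulated data. Apart from the members and Denr, genes are named where they passed the threshold within a list of the pathway (up to 3 in each direction by size), as near relatives of a member (by shared stretches of CDS, in place of the protein identity first intended), or as the 5 most alike in RNA. 1 gene of the pathway list is not reported here. Members and lists were chosen with earlier results of these data known. Figures were drawn with matplotlib 3.10.9 in Python 3.11.15, and transcripts were taken from GENCODE vM21 and promoters from RefSeq.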

Additional observations from a re-analysis of the deposited data

Results flagged for a closer look

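In groups of 4 to 10 lysates, a lysate was picked out where its gap to the nearest other exceeded Dixon's 95% limit. Of 68 groups tested for the members 6 held such a lysate, and chance picks out about 1 in 20. The groups are not independent, since TE is taken from the RNA and footprints of the same lysate. Denr shRNA1 replicate 1 was the lysate in 3 of the 6, and its Cald1 RNA enters both of its Cald1 results. Its log2 CDS RNA of Cald1 was 4.44, against 5.02 to 5.33 in the other knockdown lysates. Its TE of Cald1 was high, at 1.65 against 0.80 to 1.10, and its TE of Acta2 was low, at −0.10 against 0.18 to 0.30. For Vcl, the log2 CDS RNA of Denr shRNA2 replicate 3 was 5.23, against 5.32 to 5.37. For the log2 ratio of 5′ UTR to CDS footprints, scramble replicate 3 had −0.82 for Cald1, against −1.34 to −1.27 in the other controls, and Gfp replicate 2 had 1.57 for Srf, against 1.10 to 1.21.

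In footprints 2 genes differed between the Denr shRNAs by limma. Flna was 0.28 higher on the log2 scale with shRNA2 than with shRNA1 (adjusted p = 0.0402), and Myl9 differed by −0.36 (adjusted p = 0.0844).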

How the results depend on the processing

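Which of the 9 genes were called moved with the settings, by limma at an adjusted p below 0.1 unless stated, and the causes were not tested. The shares of all genes called under these settings, the replicate block included, are not given here. In RNA, where none was called, centring on the median called 1 (Vcl), as did voom and scramble shRNA alone as control, a fit with 4 shRNA groups 2, the length and GC correction 4 (Myl9, Srf, Tpm2 and Vcl), and leaving out single lysates 0 to 2. In footprints, 4 were called, 2 with Denr shRNA2 alone (Flna and Vcl), 6 with scramble shRNA alone (with Cald1 and Tpm1), and 2 to 4 without single lysates. A fit with 4 shRNA groups also called Tagln in footprints. Between the Denr shRNAs, 2 were called, 1 (Flna) without a trend in eBayes, and 0 to 2 without single lysates. Between the controls, 1 was called, 0 without the trend, 3 after the length and GC correction (with 1, Tagln, in RNA), and 0 to 3 without single lysates. For the 5′ UTR ratio, 2 of 7 were called, 1 with a pseudocount of 0.01 (Cald1), 1 without division by the CDS (Acta2), and 0 with centring, either Denr shRNA alone, scramble shRNA alone, 4 groups, division by 5′ UTR RNA or a filter on 5′ UTR RPKM, and 0 to 3 without single lysates. In TE none was called under any setting run. Centring moved the median of all genes by 0.023 in RNA, 0.0033 in footprints and −0.013 in TE. Of the 45 other genes of the pathway, the RNA calls (1, higher) were 3 higher and 1 lower with 4 groups, 2 and 2 with Denr shRNA2 alone, 0 and 1 with Denr shRNA1 alone, and 4 lower with the length and GC correction. Their footprint calls (5 higher, 7 lower) were 2 and 4 with Denr shRNA2 alone, 11 lower with 4 groups and 3 higher with the correction.

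With the replicate block 5 genes were called in RNA (Acta2, Flna, Myl9, Tagln and Vcl), 5 in footprints, 4 in the 5′ UTR ratio and, between the controls, 5 in footprints and 1 in RNA. Of the 45 other genes 6 were then called higher and 1 lower in RNA. Lysates with the same number deviated together in most but not all pairs. An r over 0.1 was found in 10 of 15 pairs in RNA, 13 in footprints and 10 in TE. Their mean r was 0.33 in RNA, 0.18 in footprints and 0.23 in TE, against −0.16, −0.089 and −0.11 for other pairs. What the numbers stand for is not stated, so the block is kept as an alternative. In RNA 7 of 11 lysates correlated best with one of their own number, and 9 in footprints and TE.

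Directions turned in small changes that were not called. Cald1 RNA was 0.13 with Denr shRNA2 alone, 0.0054 with 4 groups and −0.11 to 0.099 without single lysates. Srf footprints were 0.062 with scramble shRNA alone and −0.090 to 0.016 without single lysates. In TE, Srf had −0.067 with Denr shRNA1 alone and −0.0079 with 4 groups, Cald1 0.086 and Myl9 0.0073 with Denr shRNA1 alone, Myl9 0.015 with voom and Tagln 0.037 with Denr shRNA2 alone, and without single lysates Srf had −0.025 to 0.088, Tpm1 −0.011 to 0.107 and Myl9 −0.11 to 0.031. In the 5′ UTR ratio, Srf had 0.020 with scramble shRNA alone and −0.13 to 0.023 without single lysates, Flna −0.090 without division, Tagln −0.054 centred, −0.077 with Denr shRNA2 alone and −0.12 with scramble shRNA alone, and Tpm1 −0.048 centred. With 5 and 6 lysates and 7 to 28 footprints on the 5′ UTR of Myl9, small shifts of 5′ UTR translation could not be measured for it or Vcl. The RPKM lengths matched GENCODE vM21 for 93.2% of single-transcript CDS and 78.4% of their 5′ UTRs.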
